A study of Homo sapiens with 30 samples.

Results

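The 64 genes described here encode the chains of the extracellular matrix that are most often read as its structural parts: collagens, laminins, and the glycoproteins fibronectin (FN1), tenascin C (TNC), SPARC, thrombospondins 1 and 2 (THBS1, THBS2), fibrillins 1 and 2 (FBN1, FBN2) and nidogens 1 and 2 (NID1, NID2). They were chosen by symbol alone from the 20367 gene symbols of a PRO-Seq table, as every symbol of the form COL, digits, A, digits, every LAMA, LAMB and LAMC symbol with a number, and the 9 named glycoproteins. By type there were 11 fibrillar collagens, 6 basement membrane collagens (type IV), 5 type VI collagens, 10 collagens of the FACIT class, which decorate the surface of fibrils, 11 other collagens, 12 laminin chains and 9 glycoproteins. Each locus was also read in ATAC-Seq and MYC ChIP-Seq peak lists of the same cell system.

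Collagen chains wind into triple helices, and laminin chains assemble as trimers of an alpha, a beta and a gamma chain. Fibrillar collagens give connective tissue its tensile strength, whereas type IV collagen and laminin form the 2 networks of a basement membrane, the sheet on which epithelia, muscle and vessels rest. Matrix genes are most active in fibroblasts and other mesenchymal cells, and several chains are restricted to particular basement membranes, such as those of the kidney glomerulus and the skin.

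The cells were G401, an established line from a malignant rhabdoid tumour, which lacks SNF5 (encoded by SMARCB1), a core subunit of the SWI/SNF chromatin remodelling complex. Cells carried a doxycycline-inducible transgene for EGFP (the control), for OMOMYC, a dominant negative form of the transcription factor MYC, or for SNF5, and all 3 kinds of cells, the control included, received 1 μg/ml doxycycline for 24 h. The transgenes were delivered by lentivirus into cells that were then selected with G418, and whether the replicates of a construct shared 1 transduction is not given in the sources used here. PRO-Seq, a nuclear run-on assay that maps engaged RNA polymerase, and ATAC-Seq, which maps open chromatin, were done on 3 samples per construct, and MYC ChIP-Seq on 2. The comparisons ask how the genes respond when the missing subunit is returned, and when MYC is inhibited without it.

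Gene body counts per PRO-Seq library totalled 28388012 to 46859674, and counts in promoter-proximal windows, which are 50 bp wide, 517821 to 3381189. SMARCB1 had gene body densities of at most 0.00363 reads per kb per 1000000 in the 6 EGFP and OMOMYC libraries and of at least 1.53 in the 3 SNF5 libraries. Summed densities over all libraries were 23.4 to 55.4 for 6 mesenchymal markers (mostly VIM), 24.1 to 52.5 for 6 epithelial markers (mostly KRT8 and KRT18), 2.495 to 9.57 for 4 smooth muscle markers, at most 0.232 for 4 haematopoietic markers and at most 0.167 for 4 endothelial markers, with PECAM1 at 0. Within these sums, CDH2 had 3, 8 and 17 gene body counts with EGFP and 71, 84 and 35 with SNF5, ZEB2 5, 12 and 2 against 82, 89 and 15, and the epithelial ESRP1 27, 61 and 60 against 127, 234 and 122. VIM, CDH1, KRT19, SPI1, CDH5, ACTA2 and TAGLN were also higher with SNF5 in each number. CDH1 had densities of 0.0241, 0.0363 and 0.217 with EGFP and 0.0642, 0.110 and 0.252 with SNF5. ACTA2 had 0.191, 0.184 and 0.406 against 0.348, 0.349 and 0.446, and TAGLN 3.48, 2.14 and 7.06 against 5.16, 3.38 and 7.65. The other markers did not rise in every number. KRT18 had densities of 42.7, 41.3 and 24.5 with EGFP and 33.3, 35.4 and 21.1 with SNF5. KRT8 had 7.18, 11.1 and 4.73 against 6.66, 9.45 and 4.68, and ZEB1 1.11, 1.19 and 1.36 against 1.11, 1.17 and 1.43. The part of these changes in the results was not tested. Libraries of replicate number 3 stood apart. Among the 53 matrix genes with a mean of at least 10 gene body counts, 12 (22.6%) differed over 4-fold between EGFP replicate 3 and the mean of EGFP replicates 1 and 2, against 5.72% of all 15060 such genes. COL19A1 was 29.8-fold and COL9A1 27.5-fold higher in EGFP replicate 3, FBN2 and THBS1 were each 13.5-fold higher, and COL4A5 was 20.4-fold lower. These 5 genes lay on the same side in replicate 3 of the other constructs. PRO-Seq tests with the replicate number as a block compared constructs within a number, and the main counts of calls are also given without replicate 3. Why these libraries differed was not tested. In such bulk samples, a change in every cell and a change in the share of cells that transcribe a gene cannot be told apart.

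In the EGFP control, most matrix genes were transcribed weakly. Their median gene body density, in reads per kb of gene body per 1000000 scaled gene body reads, was 0.0889 over the 53 genes, against 1.23 over all genes with the same minimum count. This unit is used for all densities below, which are given in the order of replicates 1, 2 and 3. COL11A1, a chain of cartilage fibrils, was the most strongly transcribed of the 64, with densities of 11.1, 12.1 and 19.3 with EGFP, 9.19, 10.1 and 20.4 with OMOMYC and 13.5, 14.98 and 21.6 with SNF5. It lay above 97.9% of all genes tested, and no other matrix gene reached a mean of 4 in EGFP.

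By class, the leading genes in EGFP were COL11A1 among the fibrillar collagens, SPARC among the glycoproteins (mean density 2.93), LAMC1 among the laminins (2.67), COL18A1 among the other collagens (2.64), COL6A2 among the type VI collagens (1.25), COL16A1 among the FACIT collagens (0.758) and COL4A5 among the basement membrane collagens (0.0477). COL18A1, whose C-terminal fragment is endostatin, had densities of 3.26, 2.61 and 2.04 with EGFP, 2.84, 2.33 and 1.68 with OMOMYC and 2.60, 2.42 and 2.14 with SNF5, and the ranges of the 3 constructs overlapped. COL16A1 had 0.155, 0.228 and 1.89 with EGFP, 0.217, 0.258 and 1.65 with OMOMYC and 0.340, 0.362 and 1.52 with SNF5, and its spread between replicate numbers was wider than that between constructs. Too few reads for a test were found at 11 genes: COL10A1, TNC, LAMA4, THBS2, COL8A2, NID2, COL21A1, COL6A3, COL11A2, COL22A1 and COL6A5. Their totals over all 9 libraries ran from 0 to 88 gene body counts.

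SNF5 raised many of these genes. In gene body counts, 29 of the 53 tested genes rose against EGFP (54.7%), with 17.3% of all 15060 genes tested called higher, and 1 fell (1.89%), with 17.1% of all genes called lower (edgeR quasi-likelihood test with the replicate number as a block, Benjamini-Hochberg adjusted p under 0.05). The median log2 fold change of the 53 was 0.66, against −0.031 over all genes tested. The minimum count was taken over all 9 libraries, and a fit of the EGFP and OMOMYC samples alone tested 49 of these genes. COL6A6, COL12A1, COL14A1 and FN1 met the minimum only through their SNF5 libraries, and COL6A6 and COL12A1 are among the 29. Of the 29, 22 rose at least 2-fold, which 1190 of all 15060 genes tested did. A rise of at least 4-fold was called for 11, a size that 3.12% of all genes tested reached. Each of the 29 was higher with SNF5 within all 3 replicate numbers, which a test within numbers favours and which is no separate support. For 15 of them the 3 SNF5 densities lay above all 3 EGFP densities. The shares of all genes with these traits were not counted. Without replicate 3, 37 of 52 rose and 5 fell, with 25.2% of all genes called higher and 32.3% lower, and all 30 calls were kept. Without replicate 1, 22 of 55 rose and 1 fell, with 7.95% of all genes called higher and 3.19% lower. Of the 30 calls, 22 were then kept. Without replicate 2, 20 of 51 rose and 1 fell, with 7.40% of all genes called higher and 2.12% lower. That fit kept 21 of the 30 calls. Without the block, the test called 3 of the 53 higher (5.66%, with 1.43% of all genes called higher), LAMB1, LAMB3 and COL17A1.

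**Figure D1:**
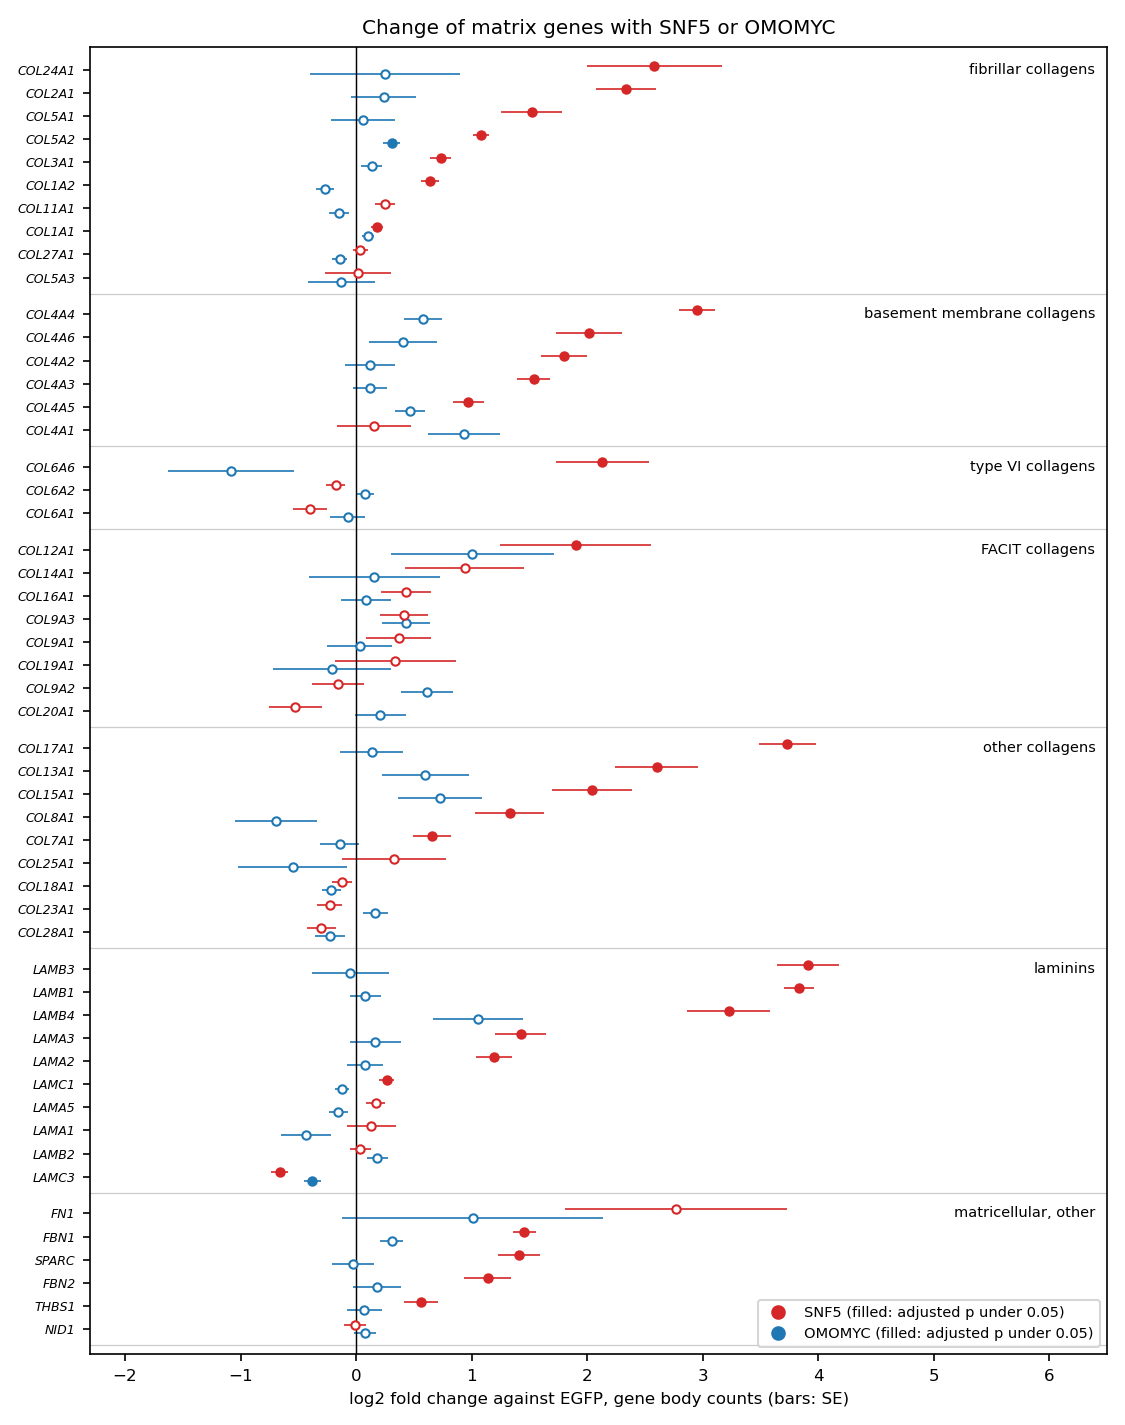
Log2 fold change against EGFP (x axis, gene body counts, bars give the SE) of 52 of the 53 matrix genes tested, by class, for SNF5 (red) and OMOMYC (blue). Filled points passed an adjusted p of 0.05. With SNF5 29 genes passed to the right of 0 and 1 to the left (LAMC3), and with OMOMYC 1 passed on each side (COL5A2 and LAMC3).

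The laminins held the largest single changes, although their median log2 fold change was 0.27, against 0.66 over the 53 genes. Of 11 tested chains, 6 rose (LAMB1, LAMB3, LAMB4, LAMA2, LAMA3 and LAMC1) and 1 fell (LAMC3). All 3 tested beta chains other than LAMB2 rose at least 9-fold. LAMB1 encodes the beta 1 chain of the laminins found in most embryonic and adult basement membranes. Its gene, NM_002291, lies on chromosome 7 of hg19 from 107564246 to 107643804 on the minus strand. Its densities were 0.0815, 0.0976 and 0.0877 with EGFP, 0.0896, 0.120 and 0.0783 with OMOMYC and 1.46, 1.41 and 0.994 with SNF5. All SNF5 libraries lay over 8 times above any EGFP or OMOMYC library, and replicate 3 did not stand apart. The log2 fold change was 3.83 (SE 0.13, adjusted p = 9.3e-07), or 14.3-fold.

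Its start window is shown because it belongs to the gene with the smallest adjusted p, and because promoter-proximal counts of LAMB1 rose too. The gene entered that second test only through its SNF5 libraries. It runs from 250 bases before to 50 after the start in the PRO-Seq table (chr7:107643755-107644054, hg19, minus strand, 5′ to 3′), and capitals mark an AP-1 motif (TGANTCA) and 3 GC boxes (GGGCGG), searched on both strands:
LAMB1: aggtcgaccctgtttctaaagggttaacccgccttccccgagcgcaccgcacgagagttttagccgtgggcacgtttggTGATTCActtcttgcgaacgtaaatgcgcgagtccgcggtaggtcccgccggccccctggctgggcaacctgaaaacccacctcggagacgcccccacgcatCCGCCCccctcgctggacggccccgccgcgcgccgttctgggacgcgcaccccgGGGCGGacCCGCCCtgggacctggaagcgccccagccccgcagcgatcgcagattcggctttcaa
AP-1 motifs occurred in 5.89% of the same windows of all 20367 genes and in 2 of the 64 matrix genes (3.13%, LAMB1 and COL6A1). GC boxes occurred in 56.4% of all windows and in 42 of the 64 (65.6%). A match describes letters and not binding.

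LAMB4, which encodes a further beta chain, lies 20.2 kb upstream of LAMB1 on the same strand. It was near the floor in EGFP, with densities of 0.00712, 0.00762 and 0.00266 with EGFP, 0.0142, 0.0125 and 0.00712 with OMOMYC and 0.0494, 0.116 and 0.0182 with SNF5. Every SNF5 library was above every EGFP library, and the gene rose by 3.22 (SE 0.36, adjusted p = 0.00038) on the log2 scale. LAMB3 encodes the beta 3 chain of laminin 332, which anchors epithelial cells to the dermis, and had densities of 0.00554, 0.0129 and 0.0148 with EGFP, 0.00871, 0.0148 and 0.00940 with OMOMYC and 0.142, 0.180 and 0.178 with SNF5. The lowest SNF5 library was over 9 times the highest EGFP library, and the log2 fold change was 3.91 (SE 0.27, adjusted p = 3.7e-05), the largest among the 53 genes.

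LAMA3 encodes the alpha 3 chain of the same laminin. It had densities of 0.206, 0.228 and 0.0355 with EGFP, 0.242, 0.259 and 0.0364 with OMOMYC and 0.437, 0.472 and 0.157 with SNF5. Replicate 3 was the lowest library of each construct, and the log2 fold change was 1.43 (SE 0.22, adjusted p = 0.0019) with all libraries and 1.05 (adjusted p = 6.5e-10) without replicate 3.

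LAMA2, the alpha 2 chain of muscle and peripheral nerve, was low, with densities of 0.00390, 0.0139 and 0.00390 with EGFP, 0.00499, 0.0122 and 0.00418 with OMOMYC and 0.00889, 0.0326 and 0.00880 with SNF5. Replicate 2 was the highest library of each construct, and within numbers the gene rose by 1.19 (SE 0.15, adjusted p = 0.00071). LAMC1, the gamma 1 chain shared by most laminin trimers, was already well transcribed, with 3.06, 3.01 and 1.94 with EGFP, 2.69, 2.65 and 1.95 with OMOMYC and 3.49, 3.37 and 2.65 with SNF5. Its change was small, at 0.27 (SE 0.063, adjusted p = 0.012), and EGFP and SNF5 ranges overlapped. It missed the threshold when replicate 1 or replicate 2 was left out.

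LAMC3, the gamma 3 chain, was the gene that fell. It had densities of 1.07, 0.729 and 0.160 with EGFP, 0.747, 0.566 and 0.136 with OMOMYC and 0.609, 0.476 and 0.110 with SNF5. In each replicate number the order was EGFP above OMOMYC above SNF5, although replicate 3 was the lowest of all. The log2 fold change was −0.66 (SE 0.075, adjusted p = 0.00039) with SNF5 and −0.38 (SE 0.074, adjusted p = 0.026) with OMOMYC. LAMA1, LAMA5 and LAMB2 gave 0.13, 0.17 and 0.035 with SNF5 and did not pass.

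Among the basement membrane collagens, 5 of 6 rose, and the class had a median log2 fold change of 1.67. These genes stand as 3 pairs that start head to head, COL4A1 with COL4A2, COL4A3 with COL4A4, and COL4A5 with COL4A6. The difference in log2 fold change within a pair was not tested. COL4A3, COL4A4 and COL4A5 encode the chains of the glomerular basement membrane, and COL4A1 and COL4A2 those of basement membranes at large.

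The starts of COL4A4 and COL4A3 are 5 bp apart on chromosome 2 of hg19. COL4A4 had densities of 0.0121, 0.0153 and 0.00337 with EGFP, 0.0187, 0.0231 and 0.00468 with OMOMYC and 0.0946, 0.109 and 0.0283 with SNF5, and every SNF5 library was above every EGFP library. It rose by 2.95 (SE 0.16, adjusted p = 1.1e-05) on the log2 scale. COL4A3 had 0.0169, 0.0421 and 0.0135 with EGFP, 0.0204, 0.0435 and 0.0141 with OMOMYC and 0.0590, 0.112 and 0.0361 with SNF5, and its SNF5 and EGFP ranges overlapped through replicate 2 of EGFP and replicate 3 of SNF5. Its log2 fold change was 1.54 (SE 0.14, adjusted p = 0.00015), smaller than that of its neighbour in each replicate number.

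COL4A1 and COL4A2 start 134 bp apart on chromosome 13. COL4A2 had densities of 0.00255, 0.0125 and 0.00264 with EGFP, 0.00297, 0.0132 and 0.00284 with OMOMYC and 0.0104, 0.0415 and 0.00855 with SNF5 and rose by 1.80 (SE 0.20, adjusted p = 0.00037) on the log2 scale, with replicate 2 the highest of each construct and overlapping ranges. COL4A1 gave 0.00553, 0.00791 and 0.0130 with EGFP, 0.0133, 0.0213 and 0.0167 with OMOMYC and 0.00836, 0.0144 and 0.00728 with SNF5, in which SNF5 was higher than EGFP in replicates 1 and 2 and lower in replicate 3. Its log2 fold change was 0.16 (SE 0.32, adjusted p = 0.74) with all libraries and 0.73 (adjusted p = 0.029) without replicate 3. The stretch between their starts is shown because the 2 genes share it and gave different values (chr13:110959497-110959630, hg19, plus strand, from the side of COL4A1 to that of COL4A2), with a CCAAT box and a GC box in capitals:
COL4A1-COL4A2: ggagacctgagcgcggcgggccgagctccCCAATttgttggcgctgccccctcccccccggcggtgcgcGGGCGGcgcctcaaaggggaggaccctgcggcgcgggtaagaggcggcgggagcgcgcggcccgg
CCAAT, searched on both strands, occurred in 35.3% of all start windows and in 24 of the 64 (37.5%).

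COL4A5 and COL4A6 start 369 bp apart on the X chromosome. COL4A5 had densities of 0.0636, 0.0761 and 0.00337 with EGFP, 0.0954, 0.110 and 0.00327 with OMOMYC and 0.124, 0.144 and 0.00700 with SNF5, with all 3 replicate 3 libraries far under the others. It rose by 0.97 (SE 0.13, adjusted p = 0.00089). COL4A6 had 0.00758, 0.0102 and 0.00168 with EGFP, 0.0124, 0.0125 and 0.00167 with OMOMYC and 0.0237, 0.0368 and 0.0104 with SNF5, and although it shared the low values of replicate 3, each SNF5 library was above each EGFP library. The rise was 2.01 (SE 0.29, adjusted p = 0.0012).

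**Figure D2:**
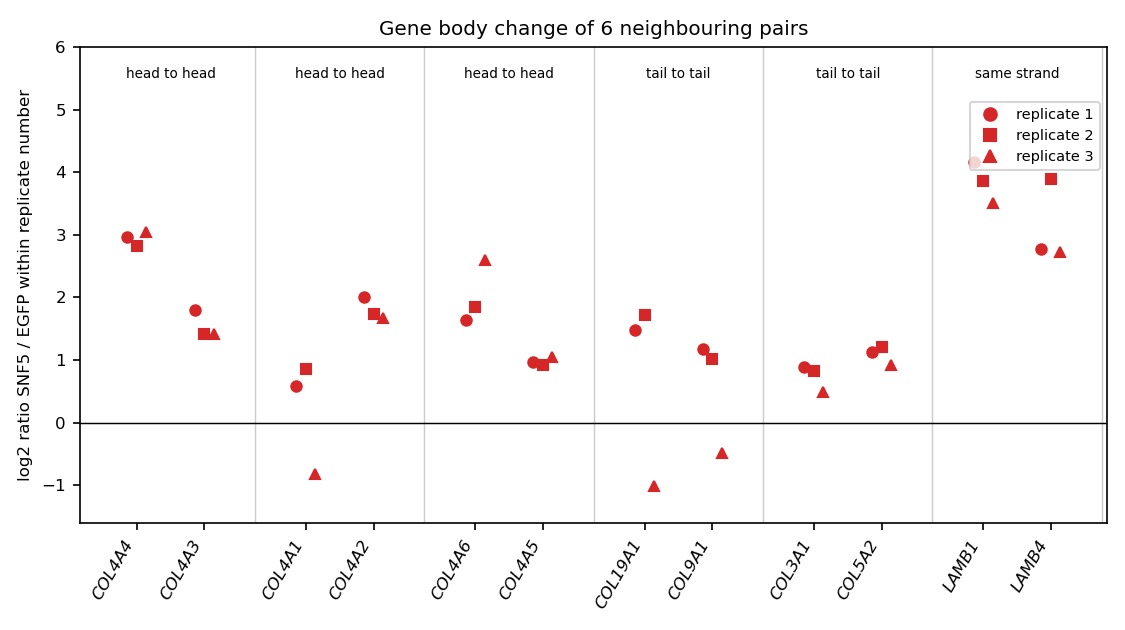
Log2 ratio of gene body counts, SNF5 over EGFP within each replicate number (y axis), for 6 pairs of matrix genes less than 25 kb apart, named by orientation. Shapes mark replicates 1, 2 and 3. COL4A4 lies above COL4A3 and COL4A6 above COL4A5 in all 3 numbers, and COL4A1, COL9A1 and COL19A1 fall under 0 in replicate 3.

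In the 3 other pairs plotted, both genes were on the same side of the threshold. COL3A1 and COL5A2, tail to tail 19.2 kb apart on chromosome 2, both rose, as did LAMB1 and LAMB4. COL19A1 and COL9A1 are tail to tail, 3.59 kb apart on chromosome 6, and neither passed.

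Of 10 tested fibrillar collagens, 7 rose and none fell, with a median log2 fold change of 0.69. COL1A1 and COL1A2 encode the chains of type I collagen, the most abundant protein of bone and tendon, COL3A1 the chain of type III collagen of vessels and skin, and COL5A1 and COL5A2 chains of type V collagen, which sets fibril diameter. COL5A2 had densities of 0.313, 0.355 and 0.239 with EGFP, 0.403, 0.472 and 0.265 with OMOMYC and 0.685, 0.822 and 0.451 with SNF5. SNF5 libraries were above all EGFP libraries, with OMOMYC between them in each number. The log2 fold change was 1.08 (SE 0.07, adjusted p = 2.9e-05). COL5A1 had 0.00387, 0.00416 and 0.0298 with EGFP, 0.00459, 0.00669 and 0.0236 with OMOMYC and 0.0157, 0.0179 and 0.0536 with SNF5 and rose by 1.52 (SE 0.26, adjusted p = 0.003), with replicate 3 the highest of each construct and overlapping ranges.

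COL3A1 had densities of 1.33, 1.88 and 2.90 with EGFP, 1.44, 2.04 and 3.28 with OMOMYC and 2.46, 3.34 and 4.05 with SNF5. It was higher with SNF5 in each number, by 0.73 (SE 0.091, adjusted p = 0.0006), while the ranges overlapped because of the spread between numbers. COL1A2 had 2.40, 3.21 and 0.432 with EGFP, 2.19, 2.56 and 0.335 with OMOMYC and 3.80, 4.56 and 0.736 with SNF5 and rose by 0.64 (SE 0.077, adjusted p = 0.00054), with replicate 3 the lowest of each construct and overlapping ranges. For COL1A1 the change was 0.18, a rise of 1.13-fold (adjusted p = 0.026), which missed the threshold when replicate 1 or 2 was left out. The difference between the changes of both type I chains was not tested.

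COL2A1, the collagen of cartilage, had densities of 0.0228, 0.0583 and 0.0199 with EGFP, 0.0294, 0.0885 and 0.0141 with OMOMYC and 0.0990, 0.320 and 0.104 with SNF5. Every SNF5 library exceeded every EGFP library, and the gene rose by 2.34 (SE 0.26, adjusted p = 0.00035). COL24A1 rose by 2.58 (SE 0.59, adjusted p = 0.01), on 127, 582 and 24 gene body counts with SNF5 and 20, 32 and 20 with EGFP, and its change with 1 replicate left out ran from 1.53 without replicate 2 to 3.37 without replicate 3. The call was lost without replicate 1 or 2. COL11A1, with 0.25 (SE 0.087, adjusted p = 0.051), lay just outside the threshold, and passed it without replicate 3, at 0.28 (adjusted p = 8.6e-08). COL5A3 and COL27A1 gave 0.018 and 0.038.

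Among 9 tested other collagens, 5 rose. COL17A1 encodes a transmembrane collagen of hemidesmosomes, the junctions that bind epithelial cells to laminin 332. The gene, NM_000494, lies on chromosome 10 of hg19 from 105791046 to 105845638 on the minus strand. Its densities were 0.0130, 0.0238 and 0.0105 with EGFP, 0.0162, 0.0277 and 0.00923 with OMOMYC and 0.224, 0.223 and 0.157 with SNF5. SNF5 libraries were more than 5 times above any other library, and the log2 fold change was 3.73 (SE 0.24, adjusted p = 2.9e-05). Its start window is shown as that of the most changed collagen (chr10:105845589-105845888, hg19, minus strand, 5′ to 3′), with a TATA box (TATAAA) and a CCAAT box in capitals:
COL17A1: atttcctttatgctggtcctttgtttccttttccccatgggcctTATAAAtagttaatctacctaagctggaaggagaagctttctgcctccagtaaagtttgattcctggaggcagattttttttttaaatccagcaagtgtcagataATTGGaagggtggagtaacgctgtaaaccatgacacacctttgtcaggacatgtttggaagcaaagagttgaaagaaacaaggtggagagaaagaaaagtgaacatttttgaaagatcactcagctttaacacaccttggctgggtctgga
The TATAAA match of COL17A1 begins 206 bases before the start and the CCAAT match 101 bases before it. TATAAA occurred in 9.38% of all windows, in 7 of the 64 (10.9%) and in 4 of the 29 that rose (13.8%).

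COL13A1, another transmembrane collagen, had densities of 0.00761, 0.0123 and 0.0244 with EGFP, 0.00983, 0.0268 and 0.0271 with OMOMYC and 0.0411, 0.0462 and 0.218 with SNF5. SNF5 libraries were above all EGFP libraries, replicate 3 of SNF5 most of all, and the change was 2.60 (SE 0.36, adjusted p = 0.001). COL15A1, which lies at the outer side of basement membranes, had 0.00414, 0.0101 and 0.00602 with EGFP, 0.00897, 0.0220 and 0.00632 with OMOMYC and 0.0264, 0.0620 and 0.0105 with SNF5 and rose by 2.04 (SE 0.35, adjusted p = 0.0028). COL8A1, a network-forming collagen of vessels and cornea, had 0.00203, 0.00364 and 0.00262 with EGFP, 0.00129, 0.00215 and 0.00164 with OMOMYC and 0.00394, 0.00940 and 0.00786 with SNF5 and rose by 1.33 (SE 0.30, adjusted p = 0.01). For both genes the lowest SNF5 library was just above the highest EGFP library, and both calls were lost when replicate 1 or 2 was left out.

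COL7A1, the collagen of anchoring fibrils under the epidermis, rose by 0.66 (SE 0.16, adjusted p = 0.015), and that call too was lost without replicate 1 or 2. COL18A1, COL23A1, COL25A1 and COL28A1 gave −0.12, −0.23, 0.33 and −0.30 and did not pass.

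Of 8 tested FACIT genes, 1 rose, COL12A1, by 1.90 (SE 0.65, adjusted p = 0.049), on 0 to 30 gene body counts per library, and this was the last gene inside the threshold. The call was lost without replicate 1, and without replicate 2 the gene was under the minimum count and was not tested. COL9A1, COL9A2, COL9A3, COL14A1, COL16A1, COL19A1 and COL20A1 gave 0.37, −0.16, 0.41, 0.94, 0.43, 0.34 and −0.53 and did not pass. Without replicate 3, COL9A1, COL16A1 and COL19A1 gave 1.07 (adjusted p = 0.00018), 0.88 (adjusted p = 2.1e-05) and 1.65 (adjusted p = 0.0062), so that leaving out replicate 3, in which their densities were highest, changed the call of all 3. COL19A1 densities were 0.000588, 0.00136 and 0.0281 with EGFP, 0.00109, 0.00118 and 0.0204 with OMOMYC and 0.00172, 0.00461 and 0.0139 with SNF5.

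For the type VI collagens, which form beaded filaments, COL6A6 rose and COL6A1 and COL6A2 did not pass. COL6A6 was very low, with densities of 0.00175, 0.00378 and 0.000749 with EGFP, 0.001003, 0.00146 and 0.000372 with OMOMYC and 0.00450, 0.0219 and 0.00388 with SNF5, and gave 2.13 (SE 0.40, adjusted p = 0.0045), a gene that was under the minimum count and not tested without replicate 2. COL6A1 had 1.04, 0.849 and 0.730 with EGFP, 0.994, 0.793 and 0.701 with OMOMYC and 0.646, 0.556 and 0.756 with SNF5. COL6A2 had 1.37, 1.19 and 1.17 with EGFP, 1.43, 1.20 and 1.33 with OMOMYC and 1.09, 1.02 and 1.19 with SNF5. In both, SNF5 was under EGFP in replicates 1 and 2 and above it in replicate 3. Their log2 fold changes were −0.40 (SE 0.15, adjusted p = 0.067) and −0.18 (SE 0.079, adjusted p = 0.11), and without replicate 3 both fell, at −0.66 (adjusted p = 2.2e-05) and −0.29 (adjusted p = 0.0016).

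Of 6 tested glycoproteins, 4 rose. FBN1 encodes fibrillin 1, the main protein of microfibrils. Its densities were 0.392, 0.377 and 0.792 with EGFP, 0.524, 0.498 and 0.864 with OMOMYC and 1.23, 1.18 and 1.68 with SNF5. Every SNF5 library was above every EGFP library, and the log2 fold change was 1.46 (SE 0.10, adjusted p = 3.7e-05). FBN2 had 0.00758, 0.00915 and 0.113 with EGFP, 0.0101, 0.0134 and 0.105 with OMOMYC and 0.0213, 0.0305 and 0.164 with SNF5 and rose by 1.14 (SE 0.20, adjusted p = 0.0035) within numbers, although its spread between numbers was larger.

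SPARC, a collagen-binding protein of remodelling matrix, had densities of 1.57, 1.54 and 5.68 with EGFP, 1.54, 1.54 and 5.47 with OMOMYC and 5.35, 4.91 and 9.53 with SNF5. SNF5 was over 3 times EGFP in replicates 1 and 2 and under 2 times EGFP in replicate 3, where all constructs were higher. The log2 fold change was 1.41 (SE 0.18, adjusted p = 0.00081), and 1.71 (adjusted p = 2.3e-11) without replicate 3. THBS1, which binds matrix and cells and activates latent TGF-beta, had 0.175, 0.173 and 2.35 with EGFP, 0.151, 0.165 and 2.85 with OMOMYC and 0.267, 0.288 and 3.09 with SNF5 and rose by 0.56 (SE 0.15, adjusted p = 0.019). This call was lost without replicate 1 or 2.

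FN1, which encodes fibronectin, had 9, 4 and 3 gene body counts with EGFP and 73, 77 and 1 with SNF5. Its log2 fold change of 2.77 (SE 0.96, adjusted p = 0.052) was just outside the threshold with all libraries and was 3.24 (adjusted p = 0.00026) without replicate 3. NID1, which links laminin to type IV collagen, gave −0.012 (SE 0.096, adjusted p = 0.94).

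**Figure D3:**
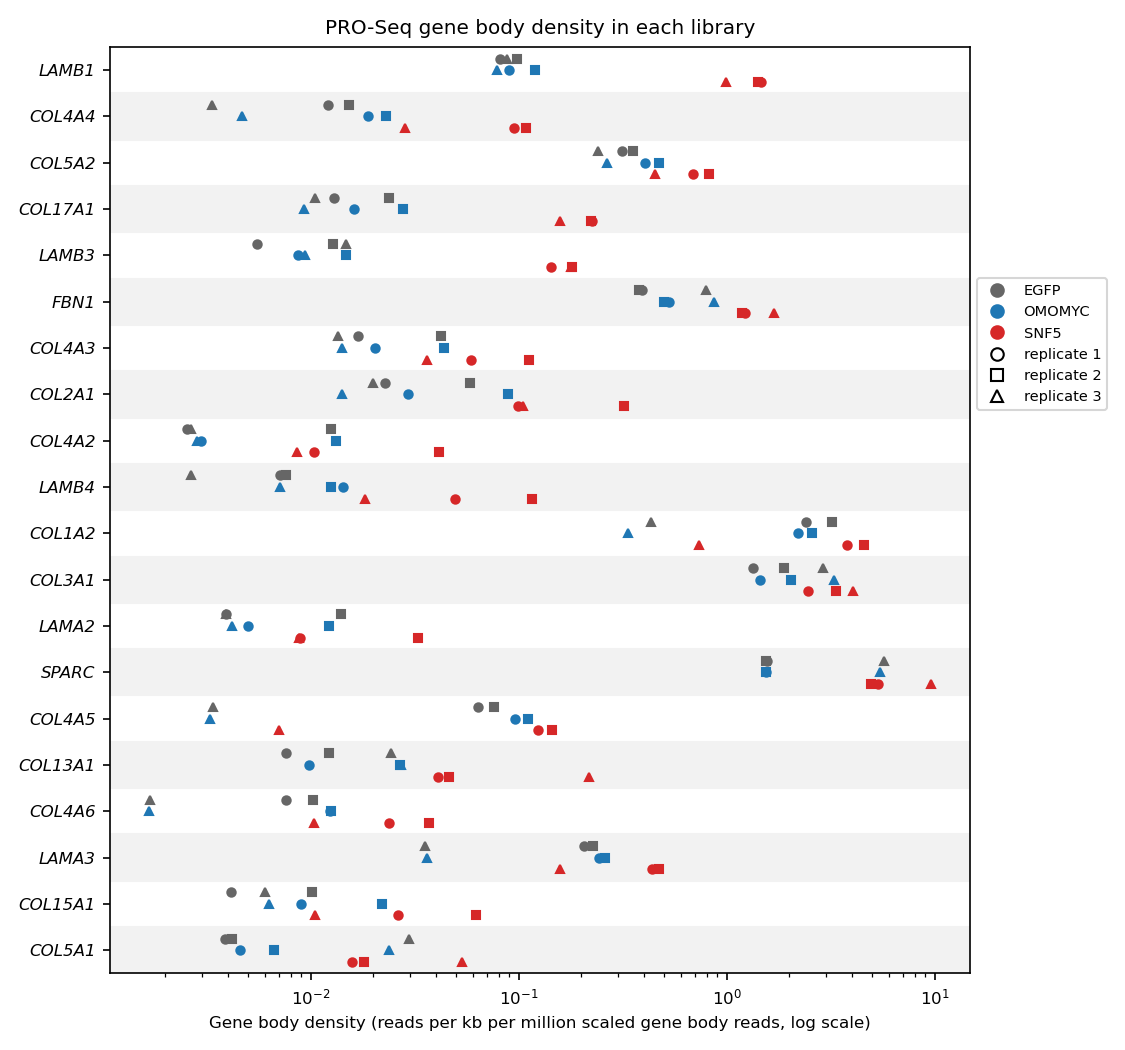
Gene body density (x axis, reads per kb per 1000000 scaled gene body reads, log scale) in each of the 9 PRO-Seq libraries for the 20 matrix genes with the smallest adjusted p among those that rose with SNF5. Colours mark constructs and shapes replicate numbers. LAMB1, LAMB3 and COL17A1 show SNF5 libraries apart from all others, while for COL4A5, COL1A2 and SPARC replicate 3 lies apart for every construct.

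OMOMYC left most of these genes without a call. Of 53 genes, 1 rose (COL5A2) and 1 fell (LAMC3), or 1.89% each, while 3.98% of all genes tested were called higher and 4.52% lower. The median log2 fold change was 0.089, against −0.0033 over all genes. COL5A2 rose by 0.31 (SE 0.07, adjusted p = 0.035), in the same direction as with SNF5. Both calls were lost without replicate 1 or 2. Without replicate 3 the test called 11 higher and 6 lower, with 20% of all genes called higher and 25.2% lower. Of the genes that SNF5 raised most, LAMB3, LAMB1 and COL17A1 gave −0.049, 0.08 and 0.13 with OMOMYC, and LAMB4, COL4A4 and COL13A1 gave 1.05, 0.58 and 0.60, and none of these 6 passed. Both comparisons use the same EGFP libraries.

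Compared directly with OMOMYC, SNF5 gave higher counts for 29 of 53 genes (54.7%, with 11.4% of all genes called higher) and lower counts for 4 (7.55%, with 7.56% of all genes called lower). The median log2 difference was 0.78, against −0.015 over all genes. LAMB1 differed by 3.75 (SE 0.13, adjusted p = 1.4e-06), LAMB3 by 3.96 (SE 0.27, adjusted p = 4.7e-05), COL17A1 by 3.60 (SE 0.24, adjusted p = 3.8e-05), FBN1 by 1.15 (SE 0.10, adjusted p = 0.00018) and COL5A2 by 0.78 (SE 0.07, adjusted p = 0.00019). LAMC3, COL23A1, COL9A2 and COL6A2 were lower with SNF5 than with OMOMYC, by −0.28, −0.40, −0.77 and −0.26. LAMA5 and COL11A1 passed here and in neither comparison with EGFP, at 0.32 (SE 0.083, adjusted p = 0.027) and 0.40 (SE 0.088, adjusted p = 0.013). Without replicate 1, and without replicate 2, 17 genes were higher and 0 lower, with 4.53 and 4.13% of all genes called higher. Without replicate 3, 36 of 52 were higher and 7 lower, with 21.7% of all genes called higher and 20.3% lower.

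Polymerase paused near the start was read in the promoter-proximal window, the 50 bp with most reads within 500 bp of a start. Only 25 of the 64 genes had a mean of 10 counts there. With SNF5, 7 of the 25 rose (28%, with 2.62% of all 11241 genes tested called higher) and 0 fell (1.67% of all genes called lower; 13 of the 25 had an unadjusted p under 0.05). The same test by DESeq2 called 6 higher and 0 lower, with 1.65% of all genes called higher and 1.12% lower. The 7 were SPARC, LAMB1, COL3A1, THBS1, COL5A2, FBN1 and LAMA3, all of which also rose in the gene body. LAMB1 met the minimum count only through its SNF5 libraries. A fit of the EGFP and OMOMYC samples alone tested 24 genes, LAMB1 not among them.

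Promoter-proximal counts of SPARC, per 1000000 scaled gene body reads, were 0.319, 0.773 and 1.86 with EGFP, 0.551, 2.30 and 4.41 with OMOMYC and 1.07, 6.85 and 6.51 with SNF5. In every number SNF5 was above OMOMYC and OMOMYC above EGFP. The log2 fold change was 2.28 (SE 0.27, adjusted p = 4.5e-07) with SNF5 and 1.25 (SE 0.28, adjusted p = 0.016) with OMOMYC. LAMB1 had 0.0290, 0.134 and 0.130 with EGFP, 0.0580, 0.169 and 0.194 with OMOMYC and 0.347, 1.95 and 0.539 with SNF5, a change of 3.05 (SE 0.44, adjusted p = 1.9e-05) with SNF5, on 11 reads in all 3 EGFP libraries together.

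COL3A1 had 1.36, 6.35 and 6.26 with EGFP, 4.14, 10.7 and 8.002 with OMOMYC and 5.63, 15.02 and 9.88 with SNF5 promoter-proximal counts on this scale and rose by 1.23 (SE 0.23, adjusted p = 0.00096). THBS1 had 0.0870, 0.168 and 1.36 with EGFP, 0.348, 0.237 and 1.59 with OMOMYC and 0.471, 0.641 and 3.41 with SNF5, with replicate 3 highest for each construct, and rose by 1.56 (SE 0.32, adjusted p = 0.0027). COL5A2 had 0.377, 1.55 and 0.953 with EGFP, 0.956, 3.21 and 1.81 with OMOMYC and 0.818, 3.65 and 2.18 with SNF5 and rose by 1.18 (SE 0.25, adjusted p = 0.0036). OMOMYC and SNF5 were above EGFP in each number for COL3A1, THBS1 and COL5A2.

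FBN1 had 0.290, 5.48 and 6.06 with EGFP, 1.10, 14.6 and 8.86 with OMOMYC and 0.917, 14.7 and 8.17 with SNF5 promoter-proximal counts and rose by 1.00 (SE 0.24, adjusted p = 0.013) with SNF5. LAMA3 had 0.0870, 0.807 and 0.0866 with EGFP, 0.174, 1.32 and 0.0645 with OMOMYC and 0.322, 1.31 and 0.561 with SNF5 and rose by 1.48 (SE 0.42, adjusted p = 0.035) with SNF5. This last call was lost by DESeq2 and without replicate 3, and without replicate 2 the gene was not tested.

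With OMOMYC, 3 of the 25 rose (12%), SPARC, FBN1 and COL5A2, and 0 fell, with 1.58% of all genes called higher and 0.169% lower. By DESeq2 the same 3 rose and 0 fell, with 1.06% of all genes called higher and 0.0534% lower. In the main test 8 of the 25 had an unadjusted p under 0.05. FBN1 and COL5A2 rose by 1.10 (SE 0.24, adjusted p = 0.016) and 1.07 (SE 0.25, adjusted p = 0.024). The median over all genes was 0.12 with OMOMYC, and a scaling by promoter-proximal counts, which moved it by −0.15, kept all 3 calls. Without replicate 2, 21 of the matrix genes reached the minimum count, LAMB1 and LAMA3 not among them. Of these 21, 0 passed with OMOMYC (0.0273% of all genes were called higher) and 2 passed with SNF5 (0.382% of all genes). Without replicate 3, 6 of 23 rose with OMOMYC, with 7.40% of all genes called higher, and 7 of 23 with SNF5, with 3.79%.

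The pausing index, which is the read density of the promoter-proximal window over that of the gene body, was tested as the difference between both changes. With SNF5 it rose for 3 of 25 genes, COL6A1, LAMC3 and SPARC (12%, with 2.02% of all 11171 genes called higher), and fell for 0 (1.64% of all genes called lower, and 9 of the 25 had an unadjusted p under 0.05). With OMOMYC it rose for SPARC, FBN1 and LAMC3 (12%, with 2.18% of all genes called higher) and fell for 0 (0.0806% of all genes called lower, and 10 of the 25 under an unadjusted p of 0.05). DESeq2 called 0 in either direction with SNF5, with 0.457% of all genes called higher and 0.448% lower. With OMOMYC it called 1 higher (SPARC, with 0.421% of all genes called higher) and 0 lower (0% of all genes).

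The index of SPARC was 4.07, 10.0 and 6.56 with EGFP, 7.15, 29.9 and 16.1 with OMOMYC and 3.98, 27.9 and 13.7 with SNF5. It was higher with OMOMYC than with EGFP in every number, and with SNF5 in replicates 2 and 3 but not in replicate 1. The changes were 0.98 (SE 0.27, adjusted p = 0.026) with SNF5 and 1.31 (SE 0.28, adjusted p = 0.0063) with OMOMYC. Gene body counts of SPARC with OMOMYC gave −0.029 (SE 0.18, adjusted p = 0.93). LAMC3 had an index of 4.34, 10.1 and 5.42 with EGFP, 5.43, 35.8 and 28.4 with OMOMYC and 10.6, 32.8 and 28.5 with SNF5, on 2 to 30 promoter-proximal reads per library, and rose by 1.63 (SE 0.42, adjusted p = 0.017) with SNF5 and 1.46 (SE 0.42, adjusted p = 0.048) with OMOMYC, where its gene body counts fell. COL6A1 had 12.3, 55.5 and 37.4 with EGFP, 19.8, 102 and 54.6 with OMOMYC and 18.4, 200 and 63.5 with SNF5 and rose by 1.15 (SE 0.27, adjusted p = 0.0089) with SNF5, while its gene body counts gave −0.40. FBN1 had an index of 14.8, 290 and 153 with EGFP, 42.0, 585 and 205 with OMOMYC and 14.96, 248 and 97.2 with SNF5 and rose by 0.84 (SE 0.23, adjusted p = 0.041) with OMOMYC. The index was lowest in replicate 1, the shallowest in promoter-proximal reads, for each of these genes and constructs. The call of SPARC with SNF5 was lost without replicate 3, and without replicate 2 the calls of SPARC, COL6A1 and FBN1 were lost and LAMC3 was not tested. Without replicate 3 the index rose for 7 of 23 genes with OMOMYC, with 8.44% of all genes called higher. With scaling factors of each region, SPARC alone kept its call with OMOMYC.

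**Figure D4:**
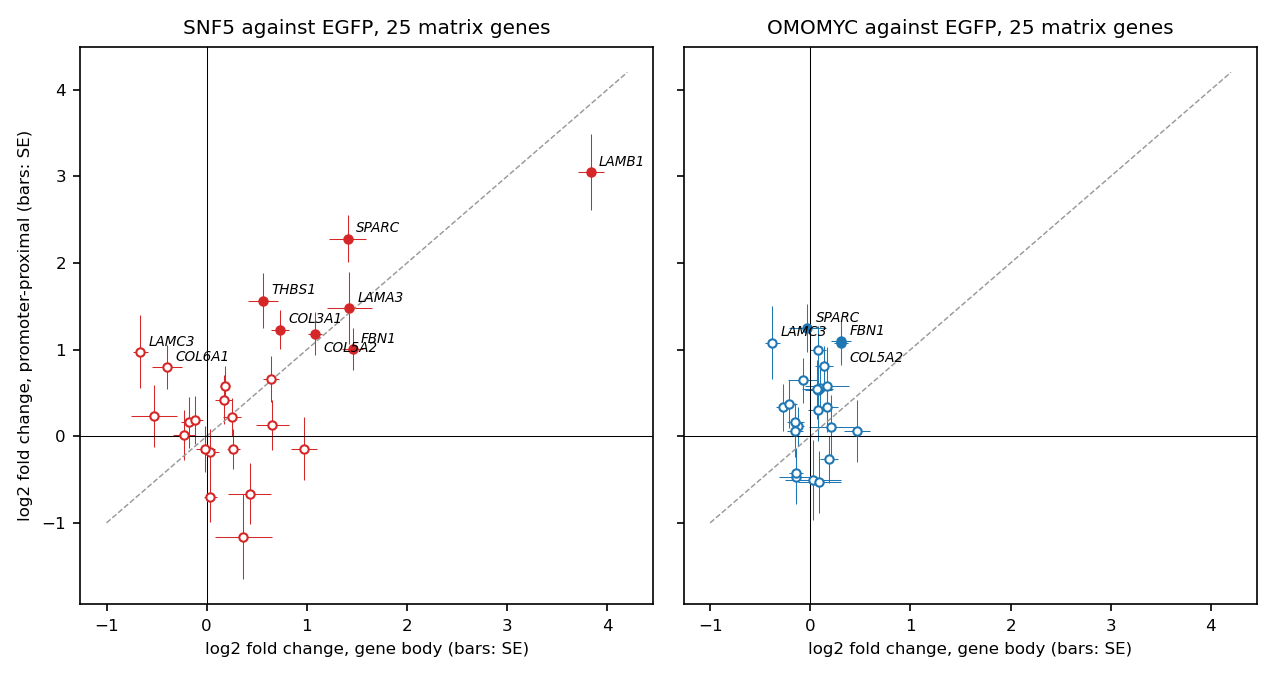
Log2 fold change of promoter-proximal counts (y axis) against that of gene body counts (x axis), with SE bars, for the 25 matrix genes tested in both, with SNF5 (left) and OMOMYC (right). Filled points passed an adjusted p of 0.05 in promoter-proximal counts, named genes passed there or in the pausing index, and the dashed line marks equal change. With SNF5 LAMB1, which met the minimum promoter-proximal count only through its SNF5 libraries, lies far out on both axes. With OMOMYC SPARC, FBN1 and COL5A2 are raised by more than 1 on the y axis and by at most 0.31 on the x axis.

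In ATAC-Seq, overlapping peaks of the 9 samples were merged into 40003 sites, of which 160 lay in a matrix gene or within 10 kb of it. A site was called gained when all 3 samples of a construct had a peak and 0 of 3 EGFP samples did. With SNF5, 25 of the 160 sites were gained (15.6%, with 9.09% of all sites gained) and 0 were lost, while 3 were lost among all sites. They lay at 20 of the 64 genes (31.3%, against 11% of 19869 protein-coding genes), at 2.36 per Mb of locus against 1.2 per Mb. SNF5 samples also held more peaks at large, 22720 to 33594 per list against 9206 to 17815 with EGFP. When the same number of top peaks was taken from each list, 1 site at a matrix gene was gained, so the 25 cannot be told apart from the longer lists. The share of all peaks that lay at matrix genes was 0.248, 0.298 and 0.163% in the EGFP samples and 0.381, 0.387 and 0.392% in the SNF5 samples, without overlap (exact two-sided permutation test, p = 0.1, the smallest that 3 against 3 samples allow). The mean difference of 0.1504 percentage points was 0.0505 when the same number of top peaks was taken from each list. It was 0.138, 0.350 and 0.311% with OMOMYC (p = 0.7, the same exact test).

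**Figure D5:**
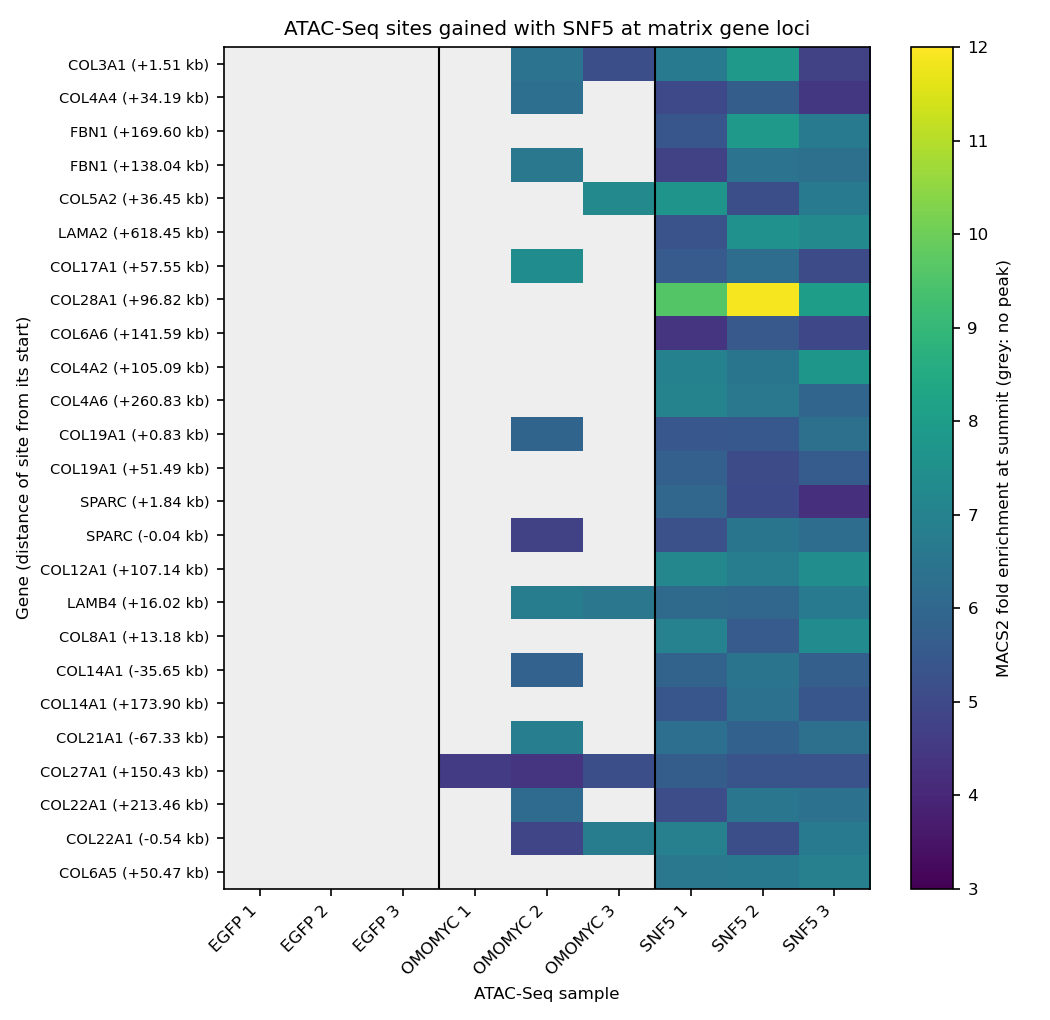
The 25 ATAC-Seq sites gained with SNF5 at matrix genes (rows, with the distance from the gene's start in kb) in the 9 samples (columns). Colour gives the MACS2 fold enrichment at the peak summit, and grey marks no peak. EGFP columns are grey by the rule that chose the sites, and 13 sites, those of SPARC at the start and of COL3A1 among them, were also peaks of 1 or more OMOMYC samples.

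Most gained sites lay away from starts. SPARC, COL19A1 and COL22A1 gained a site within 1 kb of the start (3 of the 64 genes, or 4.69%, against 2.19% of protein-coding genes). COL22A1 was among the least transcribed genes, with densities of 0.000713, 0.000622 and 0.000401 with EGFP, 0.00125, 0.00167 and 0.000529 with OMOMYC and 0.000305, 0.000858 and 0.000622 with SNF5. Sites inside the gene were gained at COL3A1 (1.51 kb from the start), COL8A1 (13.2 kb), LAMB4 (16.0 kb), COL4A4 (34.2 kb), COL5A2 (36.4 kb), COL4A2 (105.1 kb), FBN1 (2 sites, 138.0 and 169.6 kb) and LAMA2 (618.5 kb), and the site of COL17A1 lay past its end. COL6A6, COL4A6 and COL12A1, which also rose, gained sites inside the gene as well. So did COL14A1, COL19A1 and COL27A1, which did not pass in gene body counts, and COL21A1, COL22A1 and COL6A5, which were not tested. The site of highest enrichment was in COL28A1 (fold 9.60, 11.9 and 8.05), whose gene body counts gave −0.30 and did not pass. Of the 17 genes with a gained site that could be tested in gene body counts, 13 rose with SNF5 and 0 fell, with a median log2 fold change of 1.41, and of the 36 without one, 16 rose and 1 fell, with a median of 0.35. Of all genes tested, 17.3% were called higher, but the same split by gained site was not made for them. The 13 include COL6A6 and COL12A1, which met the minimum count only through their SNF5 libraries. A link between site and change was not tested. LAMB1 and LAMB3 gained none.

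At SPARC the gained site, of 234 bp, covers the start (chr5:151686841-151687074, GRCh38), with fold enrichments of 5.23, 6.49 and 6.23 in the SNF5 samples. One OMOMYC sample, replicate 2, also had a peak there (4.76), and no EGFP sample did. A second site was gained 1.85 kb into the gene. The RefSeq start window of SPARC is shown because it is the tested gene with a new open site at its start that rose in gene body, window and index (chr5:151686866-151687165, GRCh38.p14, minus strand, 5′ to 3′), and capitals mark the 209 bases inside the gained site:
SPARC: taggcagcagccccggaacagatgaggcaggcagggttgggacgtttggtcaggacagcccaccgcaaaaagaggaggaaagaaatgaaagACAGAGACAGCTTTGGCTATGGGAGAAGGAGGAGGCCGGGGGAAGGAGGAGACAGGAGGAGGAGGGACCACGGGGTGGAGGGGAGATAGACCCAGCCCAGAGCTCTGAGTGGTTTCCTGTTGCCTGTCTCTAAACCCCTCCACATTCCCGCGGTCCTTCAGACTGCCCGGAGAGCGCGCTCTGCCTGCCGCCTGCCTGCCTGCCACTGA
None of the 5 motifs searched was in this window on either strand. The start in the PRO-Seq table lies elsewhere, and its window held a CCAAT box.

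A site at the start was present in all 3 samples for 4 genes with EGFP, 2 with OMOMYC and 11 with SNF5 (6.25, 3.13 and 17.2% of the 64), against 31.8, 28.3 and 45.7% of protein-coding genes. For 42 of the 64 no sample had one. With OMOMYC 1 site was gained at a matrix gene, in COL27A1 (0.0275% of all sites were gained), and the same site was gained with SNF5.

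MYC binding was read from the peak lists of 2 EGFP samples. For 0 of the 64 genes did both samples have a peak within 1 kb of the start, against 4.31% of all 20367 genes. In either sample alone, 1 gene had one, LAMC1 in replicate 2 (fold 5.07), against 23.2%. The E box of MYC, CACGTG, was in none of the 64 start windows and in 8.33% of all windows.

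Genes that act on the matrix were taken as 5 lists outside the 64 and read in gene body counts with SNF5, with 17.3% of all genes higher and 17.1% lower as above. Of 26 tested receptors, 11 rose and 3 fell. ITGB3, the integrin beta 3 chain, had densities of 0.0195, 0.0209 and 0.0135 with EGFP and 0.209, 0.243 and 0.164 with SNF5 and rose by 3.53 (SE 0.30, adjusted p = 9.1e-05). ITGA11, a collagen-binding integrin chain, had 0.00784, 0.0125 and 0.0176 with EGFP and 0.0360, 0.0678 and 0.164 with SNF5 and rose by 2.69 (SE 0.30, adjusted p = 0.00035). In both genes every SNF5 library was above every EGFP library.

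Of 34 tested proteoglycans and other basement membrane parts, 13 rose and 6 fell. FREM1, a basement membrane protein of embryonic epithelium, rose by 1.66 (SE 0.12, adjusted p = 4.9e-05) and MATN2, a matrilin, by 2.23 (SE 0.16, adjusted p = 4.9e-05). Of 22 proteases and inhibitors, 8 rose and 4 fell, and the 2 plasminogen activators moved in opposite directions: PLAT rose by 1.98 (SE 0.17, adjusted p = 9.2e-05) and PLAU fell, at −0.78 (SE 0.077, adjusted p = 0.00022). PLAU had densities of 29.0, 27.0 and 20.1 with EGFP and 16.1, 15.6 and 12.6 with SNF5, without overlap.

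Of 20 matrix regulators, 10 rose and 3 fell, with CTGF, a matricellular protein induced by TGF-beta and YAP, at 0.72 (SE 0.075, adjusted p = 0.00027) and SMAD2 at 0.41 (SE 0.045, adjusted p = 0.00034). The enzymes and chaperones that process collagen did not rise as a group. Of 24 tested, 5 rose, 6 fell and 13 did not pass, with a median log2 fold change of −0.067. P4HB, a subunit of the prolyl hydroxylase, fell, at −0.47 (SE 0.068, adjusted p = 0.0013), and GLT25D2, a collagen galactosyltransferase, rose by 0.50 (SE 0.09, adjusted p = 0.0036). With OMOMYC the 5 lists held 0 to 2 genes called in either direction each.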

How the data were processed

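PRO-Seq was analysed in 9 samples, ATAC-Seq in 9 and MYC ChIP-Seq peaks in the EGFP samples. The authors trimmed PRO-Seq reads with cutadapt, kept those longer than 15 bp, aligned them to hg19 with Bowtie2, removed reads under a mapping quality of 10 and deposited raw counts per transcript by region, without pooling. The promoter-proximal region was a window of 50 bp, that with the highest count up to 500 bp from the start, and the gene body ran from 1 kb past the start to the end. The deposited signal was reads per bp of gene body, not scaled for depth. ATAC-Seq peaks (hg38, q of 0.001) and MYC ChIP-Seq peaks (hg19, q of 0.01) were called per sample with MACS2 by the authors and deposited with their fold enrichment and −log10 q value.

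The 20582 transcripts were reduced to 20367 symbols. Densities were this signal per kb and per 1000000 gene body reads, scaled by RLE factors of gene body counts. Constructs were compared with edgeR 4.0.16 (quasi-likelihood F test, all 9 samples, replicate number as a block, mean count of at least 10 in the region, Benjamini-Hochberg adjustment over all genes tested, threshold 0.05). SE was the log2 fold change over the square root of F. The pausing index was tested as the interaction of region and construct. Libraries with the same number deviated together (correlation of deviations from construct means 0.821 to 0.921 over 15060 genes, against −0.719 to 0.172 between numbers), so the numbers were taken to pair samples. The study describes the PRO-Seq replicates as independent experiments, its own DESeq2 fit took a batch effect into account, and the labels do not say from which cultures they came. The p-values of tests with the block measure how far construct differences varied from number to number in these samples. They do not measure the spread between samples of a construct. Fits were tested on simulated data. Alternatives were TMM factors, DESeq2 1.42.0, no block, no filter, the 6 samples compared, factors of each region and leaving out each replicate.

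ATAC-Seq loci were the genes with 10 kb on each side (GENCODE, GRCh38), and coordinates were not converted between builds. Sequences came from the hg19 genome, or from RefSeq for SPARC. The 64 genes and the gene lists were chosen with earlier results of these data known. Values per sample were given for the 25 genes of smallest adjusted p in gene body counts, up to 5 genes called in promoter-proximal counts and in the pausing index each, the most transcribed gene of each class in EGFP and genes with a site gained at the start, and in the lists the 2 genes of smallest adjusted p were named. Genes named outside this rule were chosen after their values were seen. IgG samples were not used here, and 1 of the 64 genes is counted but its own values are not reported here.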

Additional observations from a re-analysis of the deposited data

How the results depend on the processing

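No call of a named gene turned its direction under any alternative tried. The replicate block mattered most. Without the block, 3 genes rose and 0 fell with SNF5 against EGFP in gene body counts, 0 rose and 0 fell with OMOMYC, and 3 were higher and 0 lower with SNF5 than with OMOMYC, and promoter-proximal counts and pausing indices gave 0 higher with either construct. In these 3 gene body comparisons 1.43, 0.00664 and 0.458% of all genes were called higher, and in the other tests 0%. Leaving out each replicate in turn gave 20 to 37 genes higher and 1 to 5 lower (SNF5 against EGFP), 0 to 11 and 0 to 6 (OMOMYC), and 17 to 36 and 0 to 7 (SNF5 against OMOMYC), with the most calls without replicate 3. Of all genes, 7.40 to 25.2% were then called higher and 2.12 to 32.3% lower (SNF5 against EGFP). These shares were 0.0132 to 20% and 0 to 25.2% with OMOMYC. For SNF5 against OMOMYC they were 4.13 to 21.7% and 0.803 to 20.3%. Leaving out replicates gave 2 to 9 higher and 0 to 1 lower in promoter-proximal counts with SNF5, 0 to 6 higher with OMOMYC, and in the pausing index 0 to 3 higher and 0 to 1 lower with SNF5 and 0 to 7 higher with OMOMYC. In promoter-proximal counts, 0.382 to 3.79% of all genes were higher and 0.0454 to 5.36% lower with SNF5, and 0.0273 to 7.40% higher with OMOMYC. In the pausing index the shares were 0.0183 to 2.51% higher and 0.0183 to 3.04% lower with SNF5, and 0 to 8.44% higher with OMOMYC.

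DESeq2 called 2 genes lower in gene body counts with SNF5 (17.2% of all genes) and 3 higher (6.45%) and 2 lower (7.06%) with OMOMYC. It called a pausing index higher for 0 with SNF5 (0.457% of all genes) and 1 with OMOMYC (0.421%). A fit of the 6 samples compared gave 5 higher (6.45% of all genes) and 3 lower (7.13%) with OMOMYC, and 2 lower (6.32%) with SNF5 than with OMOMYC. It also gave 1 higher pausing index with OMOMYC (1.51% of all genes). Without the filter, promoter-proximal counts of 49 matrix genes were tested and were higher for 11 with SNF5 (3.01% of all genes) and 5 with OMOMYC (1.65%). Factors of each region gave a pausing index lower for 1 gene with SNF5 (3.43% of all genes) and higher for 1 with OMOMYC (1.10%). The cause of these differences was not tested.

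ATAC-Seq sites gained with SNF5 numbered 47 when 2 of 3 samples sufficed, 1 with the same number of top peaks per list and 31 to 49 with 1 replicate left out. With OMOMYC, 4 were gained and 2 lost when 2 of 3 samples sufficed, 0 were gained with the same number of top peaks, and 1 to 5 were gained and 0 to 2 lost with 1 replicate left out. The share of peaks at matrix genes, OMOMYC minus EGFP, was 0.0301 percentage points, 0.0187 to 0.1005 without replicate 1 or 2, and −0.0288 without replicate 3. With peaks of either EGFP sample, 1 matrix gene had a MYC peak. Depth limits the promoter-proximal comparisons, since 39 of the 64 genes had too few reads in that window.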
